A study of Mus musculus with 4 samples.

Results

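miR-211 and miR-204 are a pair of closely related miRNAs whose hairpins lie in introns of genes for TRPM cation channels, Trpm1 for miR-211 and Trpm3 for miR-204. Both arms of each hairpin were taken by name from the table of 1907 mature miRNAs, which gave 4 members (mmu-miR-211-5p, mmu-miR-211-3p, mmu-miR-204-5p and mmu-miR-204-3p). They were chosen by the measured levels of mmu-miR-211-5p, which had the largest difference between the culture media in these same libraries, so that difference is given below as a description and without a test.

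Small RNA-seq was performed on the mouse embryonic stem (ES) cell line E14Tg2A (strain 129/Ola) and on epiblast-like aggregates (ELA), the primed stage formed after 2 days of floating culture in a minimal medium without LIF or inhibitors. "Serum" stands for ES cells kept in 10% fetal calf serum with LIF (leukemia inhibitory factor) at 1000 U/mL. "2iL" stands for serum-free medium with the same LIF, 1 µM of the MEK inhibitor PD0325901 and 3 µM of the GSK3 inhibitor CHIR99021. ELA serum and ELA 2iL are named after the medium of the ES cells they came from, so all cells share 1 parental line and the ELA themselves received neither serum nor inhibitors. Each of the 4 groups is 1 library made from RNA of 3 pooled sets of experiments, so no value has a replicate error.

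A miRNA acts by guiding Argonaute to messenger RNAs that pair with its seed, bases 2 to 8 counted from the 5′ end, and the bound messages are repressed. One arm of a hairpin usually becomes this guide, while the other arm is discarded. miR-211 is best known from melanocytes, where it is made together with its host Trpm1 under the pigment cell factor MITF. miR-204 is known from the retinal pigment epithelium, the lens and the choroid plexus.

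The mature sequences are shown because the resemblance of the 5p arms decides how the counts can be read. They are written 5′ to 3′ with bases 2 to 8 in capitals and come from RefSeq (GRCm38.p6), where all 4 members were matched. Each was found at 1 exact place in the mm9 genome.
mmu-miR-211-5p: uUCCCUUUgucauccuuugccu
mmu-miR-204-5p: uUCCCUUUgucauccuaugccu
mmu-miR-211-3p: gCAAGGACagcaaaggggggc
mmu-miR-204-3p: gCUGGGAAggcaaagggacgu

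The 5p arms shared the seed and 21 of 22 bases (95.5%). Their only difference, written from miR-204-5p to miR-211-5p with positions from the 5′ end, was A17U. The 3p arms had different seeds and shared 14 of 21 bases (66.7%). In mm9, the only place within 1 mismatch of mmu-miR-211-5p was the miR-204 hairpin, and the only one for mmu-miR-204-5p was the miR-211 hairpin. A read that ends before base 17, or with 1 error there, can therefore be counted for the other miRNA, and the number of mismatches allowed in mapping is not given in the sources used here. One further listed miRNA carried the seed of the 5p arms, mmu-miR-7670-3p, with 3 reads in ES 2iL and 0 in the other libraries. mmu-miR-7684-5p, which carries the seed of mmu-miR-204-3p, had 0 reads throughout.

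The hairpins are shown with both mature arms in capitals, to place the arms that were counted. Mir211 lies at chr7:71350692-71350797 of mm9 on the plus strand and Mir204 at chr19:22825095-22825162, also on the plus strand.
Mir211: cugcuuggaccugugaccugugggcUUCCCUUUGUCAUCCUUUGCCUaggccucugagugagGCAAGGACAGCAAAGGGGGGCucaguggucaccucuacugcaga
Mir204: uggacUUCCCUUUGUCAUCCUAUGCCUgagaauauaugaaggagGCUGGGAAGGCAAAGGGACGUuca

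Both hairpins had the orientation of their host gene and were intronic. In the GENCODE M1 annotation of mm9, Mir211 fell in an intron of 10 of the 18 transcripts of Trpm1 and in an exon of 0, and Mir204 fell in an intron of 9 of the 10 transcripts of Trpm3 and in an exon of 0. In the transcript with the most exons, 27 for either gene, the hairpin sat in intron 6 in both cases. That intron was 3682 bases long in Trpm1, with Mir211 1212 bases behind the preceding exon, and 33462 bases long in Trpm3, with Mir204 17433 bases behind it. Neither hairpin belongs to a tight cluster. The nearest other annotated miRNA gene was 751 kb away from Mir211 and 399 kb away from Mir204. Messenger RNA of the host genes is not part of these files.

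The deposited values were in RPM, read counts scaled to the same total of listed miRNA reads in each library, from which whole reads could be recovered. The libraries held 587363 reads (ELA 2iL) to 8056984 reads (ES serum), a 13.7-fold span. As each value is a share of a pooled library, fewer cells making a miRNA and less of it per cell cannot be told apart. Titles, source names and characteristics name the same groups as the column names, but the free-text descriptions exchange ES 2iL and ELA serum. The titles were followed. Should the descriptions be right instead, the values given for ES 2iL and ELA serum change places throughout, and the highest level of mmu-miR-211-5p would be that of ELA serum. By the titles, mmu-miR-302d-3p, a miRNA known from the primed state, was higher in ELA than in ES cells in both media, with 2451 against 16726 RPM for serum and 27.5 against 2930 RPM for 2iL. With the libraries exchanged it would be lower in ELA in both, from 2451 to 27.5 RPM for serum and from 16726 to 2930 RPM for 2iL. The other listed miRNAs of its cluster (mmu-miR-302a-3p, mmu-miR-302b-3p and mmu-miR-367-3p) had the same directions. mmu-miR-291a-3p, mmu-miR-294-3p and mmu-miR-295-3p, of the cluster typical of naïve cells, were lower in ELA in both media by the titles and would be higher in both with the libraries exchanged. mmu-miR-292a-3p, a further listed miRNA of this cluster, had 0 reads in all libraries. Of miRNAs that mark other cell types, mmu-miR-122-5p (liver) had 0 reads in all libraries, and the 3 blood markers summed to 1.62 to 8.51 RPM, with mmu-miR-142a-3p at 0. The summed markers were between 262 and 424 RPM for neurons (mmu-miR-124-3p and mmu-miR-9-5p) and between 413 and 754 RPM for surface epithelium, in which mmu-miR-205-5p went from 278 RPM in ES serum to 465 RPM in ES 2iL and mmu-miR-203-3p from 135 to 8.67 RPM. The 2 muscle markers summed to between 0 and 73.2 RPM, with mmu-miR-133a-3p at 84 reads (serum) and 0 reads (2iL) in ES cells and 201 reads (serum) and 42 reads (2iL) in ELA. The part of these cell types in the results below was not tested.

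mmu-miR-211-5p, the guide arm of the Trpm1 hairpin, was a rare miRNA in serum and an abundant one in 2iL. It had 70 reads in ES serum, or 8.69 RPM (exact 95% interval 6.77 to 11.0). In ES 2iL it had 16178 reads, or 5847 RPM (5757 to 5937). ELA serum held 21 reads, or 4.87 RPM (3.02 to 7.45), and ELA 2iL held 131 reads, or 223 RPM (186 to 265). These intervals, and all others below, cover counting error only. Both 2iL libraries lay far above both serum libraries, and the ES library lay above the ELA library within each medium. By abundance, it ranked 32 of the 969 miRNAs with reads in ES 2iL, where it took 0.585% of all miRNA reads, and 441 of 1034 in ES serum. In ELA it ranked 162 of 691 after 2iL and 477 of 930 after serum.

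mmu-miR-204-5p, the guide arm of the Trpm3 hairpin, was rare in all 4 libraries and varied less. It had 39 reads in ES serum, or 4.84 RPM (3.44 to 6.62), and 100 reads in ES 2iL, or 36.1 RPM (29.4 to 44.0). In ELA serum there were 27 reads, or 6.27 RPM (4.13 to 9.12), and in ELA 2iL 7 reads, or 11.9 RPM (4.79 to 24.6). ES 2iL was the highest library and its interval stood clear of the others, while the intervals of the other libraries overlapped.

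The 3p arms, which are the discarded strands of these hairpins, were nearly undetected. mmu-miR-211-3p had 73 reads (26.4 RPM, 20.7 to 33.2) in ES 2iL and 0 reads in the other libraries. mmu-miR-204-3p had 0 reads in all 4. Taking 3 reads as the limit, a count of 0 allows up to 0.372 RPM (serum) or 1.08 RPM (2iL) in the ES libraries and up to 0.696 RPM (serum) or 5.11 RPM (2iL) in the ELA libraries. Of the 4 members, 2 had reads in every library, and the same 2 (the 5p arms) were among the 599 miRNAs for which 2 or more libraries held 10 or more reads, on which the comparisons below are based.

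**Figure D1:**
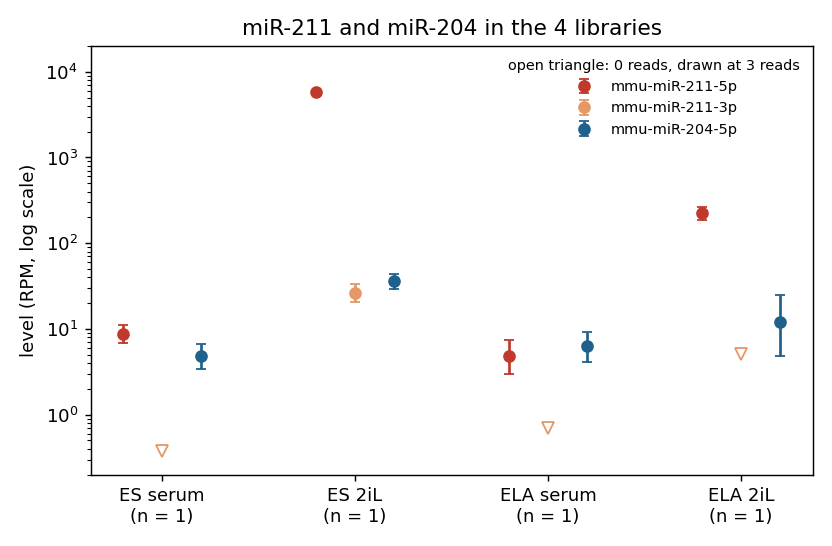
Level in RPM (log axis) of mmu-miR-211-5p, mmu-miR-211-3p and mmu-miR-204-5p in the 4 libraries, 1 library per group, with exact 95% counting intervals as bars. Open triangles mark 0 reads and are drawn at the level of 3 reads. mmu-miR-211-5p spans 4.87 to 5847 RPM, mmu-miR-204-5p only 4.84 to 36.1 RPM.

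Arm use could be measured well in a single library. In ES 2iL, mmu-miR-211-5p had 222 reads for each read of mmu-miR-211-3p, and the 3p arm made up 0.449% of the reads of the hairpin (exact 95% interval 0.352 to 0.564). In ELA 2iL the 3p arm had 0 of 131 reads, which allows a share of up to 2.78%, and in ES serum 0 of 70, which allows up to 5.13%. At the share seen in ES 2iL, these libraries would have held 0.591 and 0.316 reads of the 3p arm. A difference in arm use was thus not detectable at this depth. For miR-204, the 3p arm had 0 of 100 reads in ES 2iL, where the upper bound was 3.62%.

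Since the 5p arms carry the same seed, their reads were also added up as 1 seed family. In ES cells the family stood at 13.5 RPM with serum (11.1 to 16.3) and 5883 RPM with 2iL (5793 to 5974). In ELA it stood at 11.1 RPM after serum (8.21 to 14.8) and 235 RPM after 2iL (197 to 278). Its make-up is described here without a test, as the level of miR-211 in 2iL chose the members. miR-211 supplied 64.2% of the family's reads in ES serum (exact 95% interval 54.5 to 73.2) and 43.8% in ELA serum (29.5 to 58.8), so that both miRNAs contributed at comparable levels. In 2iL it supplied 99.4% in ES cells (99.3 to 99.5) and 94.9% in ELA (89.8 to 97.9).

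**Figure D2:**
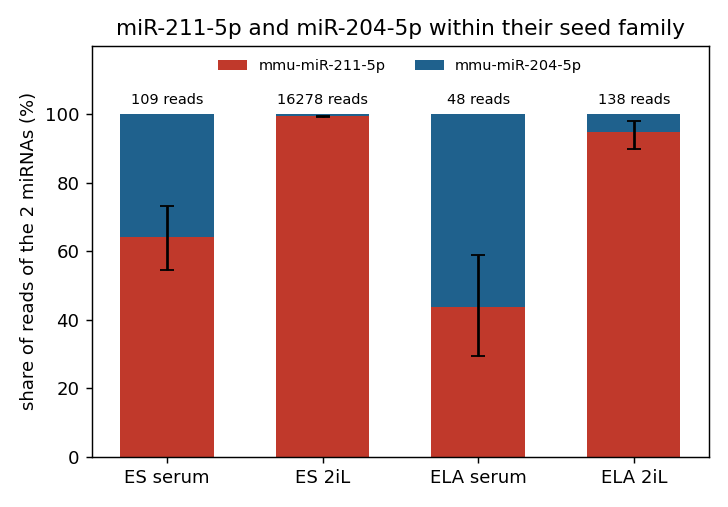
Share in percent of mmu-miR-211-5p and mmu-miR-204-5p among the reads of both, in each of the 4 libraries, with exact 95% binomial intervals for the miR-211 share and the number of reads above each bar. miR-211 makes up 64.2% and 43.8% of the reads in the serum libraries and 99.4% and 94.9% in the 2iL libraries.

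The medium of the ES cells was the comparison from which the members had been chosen. Differences between libraries were taken on log2(RPM + 1), a scale that understates the change of rare miRNAs, and folds were taken from the read shares. mmu-miR-211-5p was 673-fold higher in ES 2iL than in ES serum (exact 95% interval 532 to 864), a difference of 9.24 on the log2(RPM + 1) scale, and none of the other 598 tested miRNAs had a larger one. In ELA, it was 45.8-fold higher after 2iL than after serum (28.7 to 76.4), a log2(RPM + 1) difference of 5.25, and 1 tested miRNA lay above it. Averaged over both stages, its difference was 7.25. Among the miRNAs of higher abundance (an average log2(RPM + 1) of 5 or more), the next, just outside the choice, were mmu-miR-196a-5p, from the Hox clusters, with 4.56 and mmu-let-7f-5p, of the let-7 family, with 3.07. Rarer miRNAs lay between these, among them mmu-miR-499-5p, with differences of 5.23 in ES cells and 3.16 in ELA.

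The miR-204 hairpin showed a smaller difference in the same direction. mmu-miR-204-5p was 7.47-fold higher in ES 2iL than in ES serum (exact 95% interval 5.11 to 11.1), with 21 of the 599 miRNAs above it on the log2(RPM + 1) scale. In ELA the ratio of 2iL to serum was 1.90, with an interval (0.699 to 4.48) that includes no difference. The seed family as a whole was 435-fold higher in ES 2iL (360 to 530) and 21.1-fold higher in ELA 2iL (15.1 to 29.9). mmu-miR-211-3p had 0 reads in ES serum. With that count set at 3 reads, its level in ES 2iL was 70.9-fold higher, a value that leaves out the counting error in ES 2iL. Of the 2 tested members, both were higher in ES 2iL by at least 1 on the log2 scale and 0 were lower by that much, beside 30.7% and 18.7% of the tested miRNAs. In ELA 1 was higher and 0 were lower, beside 23.9% and 14.7%.

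The level of mmu-miR-204-5p in ES 2iL has to be read beside that of its neighbour in sequence. Its 100 reads there equal 0.618% of the 16178 reads of mmu-miR-211-5p, from which it differs at 1 base. The same percentage of the miR-211 reads comes to 0.433 of the 39 miR-204 reads in ES serum, 0.130 of 27 in ELA serum and 0.810 of 7 in ELA 2iL. Whether miR-211 reads were counted as miR-204 was not tested, since the reads themselves were not used here. The levels of mmu-miR-204-5p in the other 3 libraries are larger than such a share would give.

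**Figure D3:**
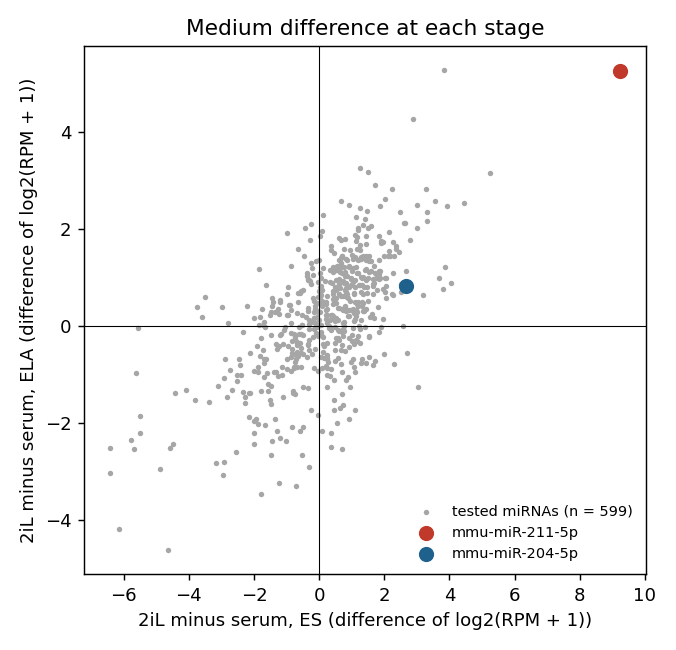
Difference between 2iL and serum in ES cells (x axis) and in ELA (y axis), both on the log2(RPM + 1) scale, for the 599 tested miRNAs, with 1 library per group. mmu-miR-211-5p lies at 9.24 and 5.25, the farthest point to the right, and mmu-miR-204-5p at 2.67 and 0.83, inside the cloud.

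The ES–ELA transition was the other comparison in the design, and asks which miRNAs change as cells leave the naïve state. mmu-miR-211-5p was lower in ELA in both media, with sizes that differed widely. In serum it went from 8.69 to 4.87 RPM, 1.78-fold lower (exact 95% interval 1.08 to 3.06), a log2(RPM + 1) difference of −0.72. In 2iL it went from 5847 to 223 RPM, 26.2-fold lower (22.1 to 31.4), a difference of −4.71, and none of the other 598 tested miRNAs had a more negative one. The intervals of these ratios in serum and in 2iL did not overlap, but each compares 1 library with 1 library. The ES 2iL library also enters the comparison that chose the members, so its high value stands in both. In ELA 2iL, mmu-miR-211-5p was still above its level in both serum libraries.

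mmu-miR-204-5p went in different directions in the media. In serum the ratio of ELA to ES was 1.29 (0.762 to 2.17), an interval that includes no difference. In 2iL it went from 36.1 to 11.9 RPM, 3.03-fold lower (1.42 to 7.74), the latter value resting on 7 reads. The seed family was 25.0-fold lower in ELA in 2iL (21.2 to 29.8), while in serum it was 1.21-fold lower with an interval of 0.857 to 1.74. With its count of 0 in ELA 2iL set at 3 reads, mmu-miR-211-3p was 5.17-fold lower there than in ES 2iL. This value also leaves out the counting error in ES 2iL. In 2iL both tested members were lower in ELA by at least 1 on the log2 scale and 0 were higher, beside 29.9% and 19.0% of the tested miRNAs. In serum 0 were lower and 0 higher by that much, beside 17.2% and 9.18%.

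Over both media, limma with stage and medium as terms gave a log2(RPM + 1) difference of −2.71 ± 1.01 (SE) for mmu-miR-211-5p, with a two-sided Benjamini-Hochberg adjusted p-value of 0.226 over the 599 miRNAs. For mmu-miR-204-5p the estimate was −0.60 ± 0.61 (adjusted p = 0.582). Neither passed the threshold of 0.05, and nor did any other miRNA (0.0% called, with 125 of 599 under an unadjusted p-value of 0.05). For mmu-miR-211-5p the estimate rests largely on the ES 2iL library, whose value also chose the members, so its p-values are not independent of that choice. Whether it passed depended on the test. On the recovered reads, DESeq2's Wald test gave an adjusted p-value of 0.0102 for it, with 8.35% of the 599 miRNAs called. edgeR's quasi-likelihood test gave 0.0502, with 6.51% called. Among edgeR options added after the data had been seen, a robust prior gave an adjusted p-value of 0.0246, with 10.4% called, and adjusted deviances gave 0.150, with 0.0% called. limma itself passed mmu-miR-211-5p with DESeq2 size factors (84 of 599, or 14%, called) and with no filter on low reads (8.24% called). In the fit without the filter, both 5p arms and mmu-miR-211-3p had the same SE of 0.57. For mmu-miR-211-5p the main fit had 1.01. Without the filter, limma also passed mmu-miR-211-3p (adjusted p = 0.00104). This arm had reads in ES 2iL alone, the library whose value chose the members. Its p-value comes wholly from that library and is no evidence of a change with stage. The estimate for mmu-miR-211-5p was negative under all 11 settings tried, and mmu-miR-204-5p passed the threshold in none of them. Within each medium the difference of mmu-miR-211-5p was negative too.

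**Figure D4:**
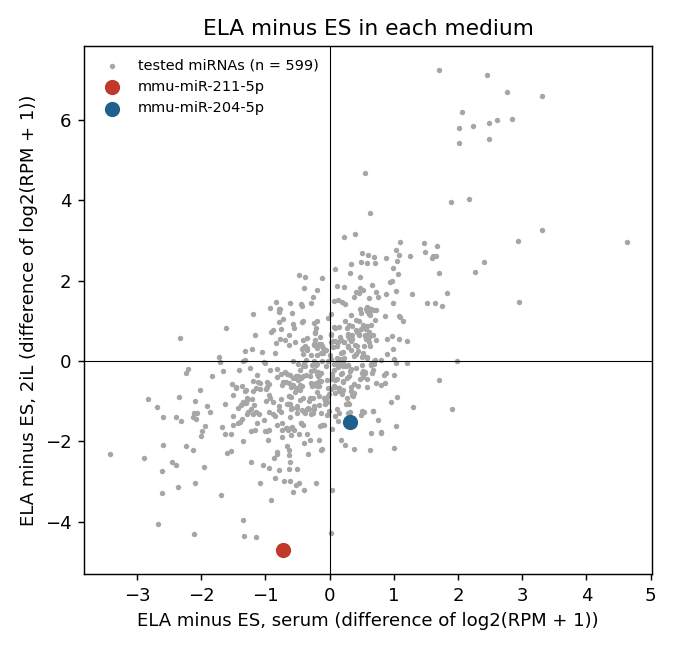
Difference between ELA and ES cells in serum (x axis) and in 2iL (y axis), both on the log2(RPM + 1) scale, for the 599 tested miRNAs, with 1 library per group. mmu-miR-211-5p lies at −0.72 and −4.71, the lowest point of the plot, and mmu-miR-204-5p at 0.31 and −1.52.

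The miRNAs whose pattern was most like that of the 5p arms were sought among those of higher abundance, taken as an average log2(RPM + 1) of 5 or more, which left 301 to compare with mmu-miR-211-5p. Likeness was the Euclidean distance between the values on that scale in the 4 libraries, each miRNA centred on its own mean. For mmu-miR-211-5p the nearest were mmu-miR-196a-5p (distance 3.97, Pearson r = 0.92), mmu-let-7f-5p (4.70, r = 0.99) and mmu-let-7g-5p (4.83, r = 0.98). These correlations run over 4 libraries and describe them only. In ES cells mmu-miR-196a-5p stood at 24.2 RPM with serum and 359 with 2iL, and in ELA at 3.94 after serum and 191 after 2iL. mmu-let-7g-5p, like mmu-let-7f-5p a miRNA that builds up with differentiation, stood at 69.4, 677, 37.1 and 269 RPM in the same order. All 3 had the same order of libraries as mmu-miR-211-5p, with ES 2iL highest and ELA serum lowest, but a narrower range.

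For mmu-miR-204-5p the distances were smaller, a measure that also grows with the range of a miRNA. By Pearson r, which does not, the closest to mmu-miR-211-5p was mmu-miR-30b-5p (r = 0.998), and the closest to mmu-miR-204-5p was mmu-miR-324-5p (r = 0.9999). The nearest to mmu-miR-204-5p by distance were mmu-miR-26a-5p (0.23), whose hairpins lie in introns of Ctdsp genes, mmu-miR-15a-5p (0.51) and mmu-miR-93-5p (0.51), from the cluster in Mcm7. In ES cells mmu-miR-26a-5p stood at 4461 RPM with serum and 25583 with 2iL, and in ELA at 6239 after serum and 10132 after 2iL, above mmu-miR-204-5p in every library. Among the miRNAs compared, none was nearer to mmu-miR-211-5p than 3.97.

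**Figure D5:**
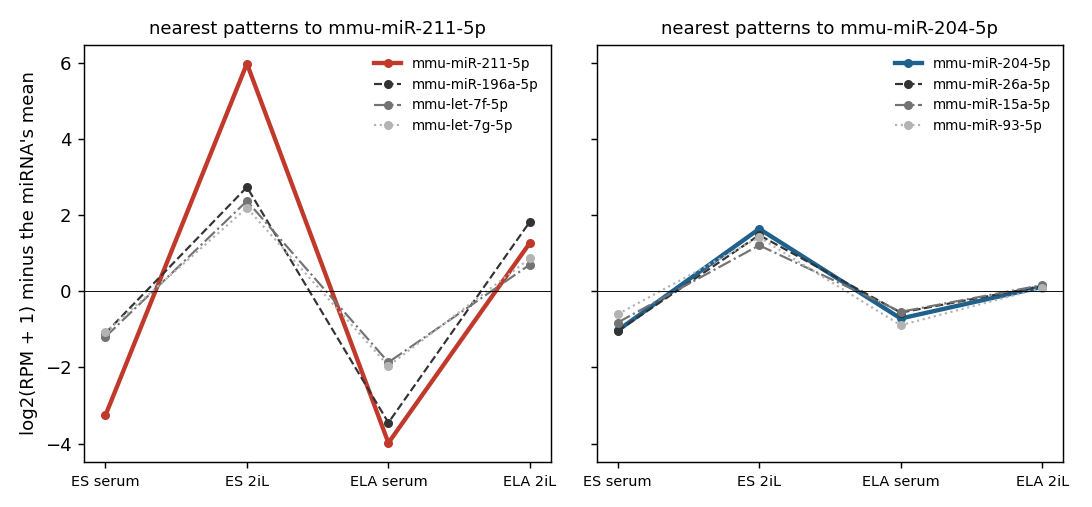
log2(RPM + 1) in the 4 libraries, centred on the mean of each miRNA, for mmu-miR-211-5p (left) and mmu-miR-204-5p (right) with the 3 nearest miRNAs of each. The line of mmu-miR-211-5p has a wider range than its neighbours, the nearest of which is at a distance of 3.97, while mmu-miR-26a-5p lies at 0.23 from mmu-miR-204-5p.

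Other miRNAs of the tissues in which miR-204 and miR-211 are known were looked up next. A list of 6 miRNAs of the retina and eye had a median 2iL minus serum difference of 0.01 over both stages on the log2(RPM + 1) scale, against 0.32 over the 599 tested miRNAs. Of the 6, 1 was higher in 2iL by at least 1 on this average and 0 were lower by that much, beside 24.5% and 15.7% of the tested miRNAs. In ES cells alone, 2 were higher by that much (mmu-miR-184-3p with 3.32 and mmu-miR-124-3p with 1.03) and 1 was lower (mmu-miR-9-5p with −1.18), beside 30.7% and 18.7% of the tested miRNAs, with a median of −0.18 against 0.43. In ELA alone 1 was higher and 0 were lower, beside 23.9% and 14.7%, with a median of −0.04 against 0.30. The miRNA that was higher at both stages was mmu-miR-184-3p, a miRNA of the lens and cornea. It had 4.96 RPM (serum) and 58.5 RPM (2iL) in ES cells and 2.55 RPM (serum) and 17.0 RPM (2iL) in ELA, the same order of libraries as mmu-miR-211-5p. The ELA values rest on only 11 reads (serum) and 10 reads (2iL). The sensory miRNAs mmu-miR-183-5p, mmu-miR-96-5p and mmu-miR-182-5p, differed on the average over stages by −0.65, −0.18 and 0.21, and the neuronal mmu-miR-9-5p and mmu-miR-124-3p by −0.68 and 0.50.

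A list of 7 miRNAs described as regulators of Mitf in pigment cells had 6 that could be tested. Their median 2iL minus serum difference over both stages was 0.40, against 0.32 over all tested miRNAs. On this average 0 of the 6 differed by 1 or more, beside 24.5% higher and 15.7% lower by that much over all tested miRNAs. In ES cells alone 2 of the 6 were higher in 2iL by that much, mmu-miR-218-5p (2.31) and mmu-miR-101a-3p (1.61), with a median of 0.86. Of all tested miRNAs 30.7% were, with a median of 0.43. In ELA 0 of the 6 were, beside 23.9%, with a median of 0.16 against 0.30 and with mmu-miR-218-5p at −0.78. The averages were 0.56 for mmu-miR-148a-3p, 0.16 for mmu-miR-148b-3p, 0.76 for mmu-miR-218-5p, 0.24 for mmu-miR-340-5p and 0.92 for mmu-miR-101a-3p, and mmu-miR-182-5p is on both lists. The member left out, mmu-miR-137-3p, had 3 reads in ES 2iL and 0 elsewhere. For the ES–ELA transition, the lists had medians of different sign in the media. The eye list had −0.36 in serum and 0.35 in 2iL, where 2 of 6 were lower in ELA by at least 1, and the pigment list had 0.28 in serum and −0.70 in 2iL, where 3 of 6 were. In serum 0 of either list were lower by that much and 1 was higher, mmu-miR-218-5p with 1.90 (−1.19 in 2iL). Over all tested miRNAs the medians were −0.15 in serum and −0.31 in 2iL, and 29.9% were lower in 2iL by at least 1. In serum 17.2% of them were lower and 9.18% higher by that much. Averaged over the media, the medians were 0.02 for the eye list and −0.09 for the pigment list, against −0.22. As limma called 0.0% of the 599 miRNAs for stage, its 0 calls in either list say nothing of the lists.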

How the data were processed

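Small RNA libraries had been prepared from total RNA (TruSeq) and sequenced as single reads on a MiSeq, and demultiplexed with CASAVA 1.8. The authors trimmed adaptors with Trimmomatic, mapped reads to mm9 with Bowtie, used featureCounts with the annotation of miRBase 20, and deposited the result as RPM. Mapping versions and mismatch settings are not given in the sources used here.

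Every value was a whole multiple of 1 read (100.0% of values within 0.01 of a whole number), which returned the reads. Groups follow the sample titles. Differences used log2(RPM + 1). The stage comparison was fitted with limma 3.58.1 (R 4.3.3) over the 4 libraries, leaving 1 residual degree of freedom, for the 599 miRNAs that reached 10 reads in 2 or more libraries. Its error comes from the departure of single pooled libraries from the sum of both terms, not from replicates. edgeR 4.0.16 and DESeq2 1.42.0 on the recovered reads, other scalings and pseudocounts were alternatives. Between single libraries only exact (Clopper-Pearson) 95% intervals were computed (scipy 1.17.1). Hairpins and mature sequences from RefSeq were searched in mm9 on both strands and set against GENCODE M1.

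The members, the eye and pigment cell lists and the rule for named miRNAs were chosen with earlier results of these data known. The rule names the members, miRNAs of the same seed, the 3 nearest patterns to each 5p arm, the next 2 of the medium comparison (both only where log2(RPM + 1) averaged 5 or more) and the list members that could be tested.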

Additional observations from a re-analysis of the deposited data

Results flagged for a closer look

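mmu-miR-204-5p was singled out because its change from ES cells to ELA went in opposite directions in the media, by 0.31 on the log2(RPM + 1) scale in serum (39 and 27 reads) and by −1.52 in 2iL (100 and 7 reads). No test of the difference between the media was made (it was not tested), because either change rests on single libraries, and the counting interval of the change in serum includes no change.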

How the results depend on the processing

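No paired analysis was possible because the libraries, 1 per group, carry no shared replicate numbers beyond the medium, which is already a term of the limma fit. For mmu-miR-211-5p, the stage change of −2.71 (adjusted p = 0.226), which rests largely on the ES 2iL value that chose the members, passed 0.05 in 4 settings. These were limma with DESeq2 size factors (−2.58, adjusted p = 0.00732) or with no filter on low reads (−2.71, adjusted p = 0.000104), DESeq2's Wald test (−2.65, adjusted p = 0.0102) and edgeR with a robust prior (−2.73, adjusted p = 0.0246). It missed in the other 6, from 0.0502 (edgeR) to 0.255 (a pseudocount of 0.5 RPM), among them edgeR with adjusted deviances (0.150). Both further edgeR settings were added after the data had been seen. The count of miRNAs called for stage moved from 0 to 28 with TMM, 84 with DESeq2 size factors, 27 when the 5 most abundant miRNAs were left out of the totals, 9 with a pseudocount of 5 RPM, 99 of 1202 with no filter, 39 with edgeR, 62 with its robust prior and 50 with DESeq2. The medium difference of mmu-miR-211-5p in ES cells (9.24) became 8.69 with TMM, 8.85 with DESeq2 size factors and 8.74 with a pseudocount of 5 RPM, which also lowered its difference in ELA from 5.25 to 4.53 and that of mmu-miR-204-5p in ES cells from 2.67 to 2.06. No direction was reversed for either 5p arm. Of the 3 nearest patterns to mmu-miR-211-5p, 0 were shared with ranking by Pearson r and 1 with the wider set of 598 miRNAs. For mmu-miR-204-5p these were 2 and 1. Depth limits the 3p arms and mmu-miR-204-5p in ELA 2iL (7 reads).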

Other observations

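When miRNAs of lower abundance were admitted (10 reads in 2 or more libraries), the nearest pattern to mmu-miR-211-5p was that of mmu-miR-499-5p, at a distance of 3.56. It is a muscle miRNA that, like miR-211, is encoded in an intron of a tissue-restricted gene, Myh7b. In ES cells it stood at 5.09 RPM with serum and 228 with 2iL, and in ELA at 4.64 after serum and 49.4 after 2iL, the same order of libraries as mmu-miR-211-5p. mmu-miR-193a-3p followed mmu-miR-196a-5p at a distance of 4.06, with 3.72 and 102 RPM in ES cells (serum, 2iL) and 2.09 and 17.0 RPM in ELA. These miRNAs were named after their values had been seen.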
